A study of Mus musculus with 12 samples.

Results

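The 9 genes described here encode enzymes that bring pyruvate into the tricarboxylic acid (TCA) cycle and turn that cycle: Pcx, Pdha1, Pdhb, Cs, Idh3a, Ogdh, Suclg1, Fh1 and Mdh2. They were taken by gene name from the count and FPKM tables, where they are 9 of 39423 genes, and the rule that names them uses no measured value, although they were chosen with earlier results of these data known. RNA sequencing was performed on 3T3-L1 cells, a mouse preadipocyte line that differentiates into adipocytes under DMI, a cocktail of dexamethasone, 3-isobutyl-1-methylxanthine and insulin (MDI in the labels). The cells carried control siRNA (siCtrl, labelled NC) or siRNA against PRMT1, a protein arginine methyltransferase (siPRMT1), and were harvested after 24 h (day 1) or 72 h (day 3) of DMI, with 3 libraries in each of the 4 conditions. All conditions received the cocktail and all were transfected, so no uninduced or untransfected cells are compared here. The knockdown is transient, in a single cell line, and the sources used here do not give which PRMT1 siRNA was sequenced.

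Pyruvate has 2 main entries into the mitochondrial cycle. Pyruvate carboxylase, the Pcx product, adds a carboxyl group to make oxaloacetate, and the pyruvate dehydrogenase complex, whose first component is built from the Pdha1 and Pdhb subunits, makes acetyl-CoA. Citrate synthase (Cs) joins both products. In adipocytes part of the citrate leaves the mitochondrion and supplies acetyl-CoA for fatty acid synthesis, so that Pcx refills what the cycle loses. Idh3a is the catalytic subunit of the NAD-dependent isocitrate dehydrogenase, Ogdh the first component of the 2-oxoglutarate dehydrogenase complex, Suclg1 the shared subunit of succinyl-CoA ligase, Fh1 fumarate hydratase and Mdh2 the mitochondrial malate dehydrogenase.

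The libraries held 15116462 to 42357137 counts on genes. Within a condition, libraries differed by a chi-square per gene of 4.14 to 15.8, except that siCtrl replicate 3 at day 1 stood apart from the other two siCtrl libraries of that day (30.8 and 50.6), so day 1 results are also given without it. Prmt1, the targeted gene, ran from 82.9 to 91.3 FPKM under siCtrl against 38.6 to 43.8 under siPRMT1 at day 1, and from 111 to 140 against 62.0 to 71.7 at day 3. The labels do not say whether replicates are separate cultures, so p-values measure the spread between these libraries only. Each adipocyte marker had a count in every library, though Adipoq had as few as 1. The summed level of these markers rose from 148 to 154 FPKM in siCtrl cells at day 1 to between 2802 and 3019 at day 3. The macrophage marker Ptprc and the muscle marker Myod1 had no count in any of the 12 libraries. The macrophage list summed to at most 3.02 FPKM, with Cd68 at 36 to 78 counts. The endothelial list (4 genes) summed to 0.12 to 0.21 FPKM in siCtrl cells at day 1 and 0.79 to 0.88 at day 3. The muscle list (5 genes) summed to 0.68 to 1.14 FPKM in siCtrl cells at day 1 and 6.35 to 6.54 at day 3, nearly all of it Des, and the epithelial list (4 genes) to 0.05 to 0.08 and 5.99 to 6.57, nearly all of it Krt14. In bulk RNA, fewer cells of a type and less RNA per cell cannot be told apart.

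The 9 genes lie on 9 different chromosomes. On GRCm38, the build of the count table, Pcx spans chr19:4510472-4621752 on the plus strand with 4307 bases of listed exons, and Pdha1 chrX:160122219-160138430 on the minus strand. Pdhb lies at chr14:8165991-8172992 (minus strand), Idh3a at chr9:54586511-54604662, Suclg1 at chr6:73248505-73276907 and Mdh2 at chr5:135778649-135790386 (all plus strand). Fh1 (chr1:175601378-175625635, minus strand), Cs (chr10:128337832-128362479, plus strand) and Ogdh (chr11:6291597-6359094, plus strand) are the other members that passed a knockdown test below. Exons of 2 members overlap another listed gene: 603 bases of Pdha1 with Map3k15, which had at most 37 counts in any library, and 280 bases of Ogdh with LOC108167883, which had at most 12.

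Promoter sequence is shown for the 4 members whose RNA passed a knockdown test at either day. The RefSeq promoter table (GRCm38.p6) matched 8 of the 9 members, all but Idh3a, with 14 start sites in all, 2 of them for Pcx and 6 for Ogdh. Each line gives the 250 bases before a start, 5′ to 3′ on the gene's strand, for both Pcx starts and for the first listed Ogdh start. Capitals mark any match on either strand to the letters CCAAT (the CCAAT box), GGGCGG (the GC box), CACGTG (the E-box) or TGACGTCA (the cAMP response element).
Pcx, upstream start, chr19:4510222-4510471, plus strand: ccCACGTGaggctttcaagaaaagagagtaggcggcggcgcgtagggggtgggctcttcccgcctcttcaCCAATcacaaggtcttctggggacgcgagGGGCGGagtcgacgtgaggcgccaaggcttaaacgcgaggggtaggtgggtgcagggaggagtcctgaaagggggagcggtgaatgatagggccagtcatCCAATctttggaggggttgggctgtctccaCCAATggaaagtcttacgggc
Pcx, downstream start, chr19:4594069-4594318, plus strand: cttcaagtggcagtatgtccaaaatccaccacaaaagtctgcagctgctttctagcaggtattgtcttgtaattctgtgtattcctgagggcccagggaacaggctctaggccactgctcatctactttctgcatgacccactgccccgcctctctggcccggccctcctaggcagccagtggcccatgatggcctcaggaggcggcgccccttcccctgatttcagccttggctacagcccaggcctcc
Cs, chr10:128337477-128337726, plus strand: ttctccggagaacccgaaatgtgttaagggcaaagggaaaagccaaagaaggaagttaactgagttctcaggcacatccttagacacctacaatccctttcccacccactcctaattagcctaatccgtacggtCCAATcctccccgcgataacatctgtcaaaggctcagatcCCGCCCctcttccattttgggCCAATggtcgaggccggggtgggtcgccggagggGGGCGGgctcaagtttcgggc
Ogdh, chr11:6291347-6291596, plus strand: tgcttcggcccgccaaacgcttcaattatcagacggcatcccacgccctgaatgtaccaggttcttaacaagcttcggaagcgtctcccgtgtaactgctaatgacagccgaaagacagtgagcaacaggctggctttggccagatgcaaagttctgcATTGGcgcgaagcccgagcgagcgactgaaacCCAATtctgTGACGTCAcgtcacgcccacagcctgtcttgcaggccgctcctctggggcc
Fh1, chr1:175625636-175625885, minus strand: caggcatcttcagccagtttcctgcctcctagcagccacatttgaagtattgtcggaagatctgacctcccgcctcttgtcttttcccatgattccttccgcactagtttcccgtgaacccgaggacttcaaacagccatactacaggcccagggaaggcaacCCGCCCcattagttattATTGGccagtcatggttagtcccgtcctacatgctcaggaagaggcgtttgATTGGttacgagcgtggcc

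The upstream Pcx start had 5 such matches and the downstream start 0, so the 2 Pcx starts differ in these letters, and the counts do not separate transcripts by start. CCAAT stood before at least 1 start of 5 members (Pcx, Pdhb, Cs, Ogdh and Fh1) and before 37.5% of all genes in the table. The GC box GGGCGG was found in 6 members and in 35.4% of genes, CACGTG in 2 (Pcx and Ogdh) and in 6.86% of genes, and TGACGTCA in 2 (Ogdh and Mdh2) and in 1.77% of genes. Along the chromosome, Ogdh had GGGCGG only before its starts 3 and 4 and CACGTG only before its starts 4 to 6, none of which is printed. All genes together had 32851 windows for 27025 genes, so more bases were searched for Ogdh, with 6 starts, than for a gene with 1. AAGGTCA (the ERR half-site, 4.70% of genes) stood in these windows of 0 members. No 2 matches in a window overlapped. A match in so short a window is a description of the letters, not a binding site.

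Levels are compared between genes in FPKM, which is per length. Mdh2 had the highest level of the 9 in every condition and Ogdh the lowest. In siCtrl cells at day 1, Mdh2 had 248 ± 17.7 FPKM (SD, n = 3), Cs 132 ± 5.66 and Ogdh 29.9 ± 4.41. The ranges of Pdha1 and Suclg1 overlapped in this condition, as did those of Fh1 with Pcx and of Pcx with Pdhb, so their order is not resolved. Pcx, sixth in that order, was second in siCtrl cells at day 3, where its 297 to 331 FPKM lay entirely above the 264 to 278 of Cs. In siPRMT1 cells at day 3, Pcx (207 to 239 FPKM) and Cs (222 to 233 FPKM) overlapped. Idh3a moved from eighth, at 42.5 to 46.5 FPKM in siCtrl cells at day 1, to sixth, at 164 to 175 at day 3, where its range overlapped those of Pdhb and Suclg1, so that the order of these 3 is not resolved. The 9 levels summed to 854 ± 60.0 FPKM under siCtrl and 802 ± 6.93 under siPRMT1 at day 1, with ranges of 816 to 924 and 795 to 809 that did not overlap, and 1898 ± 79.7 and 1677 ± 15.8 at day 3, again without overlap.

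**Figure D1:**
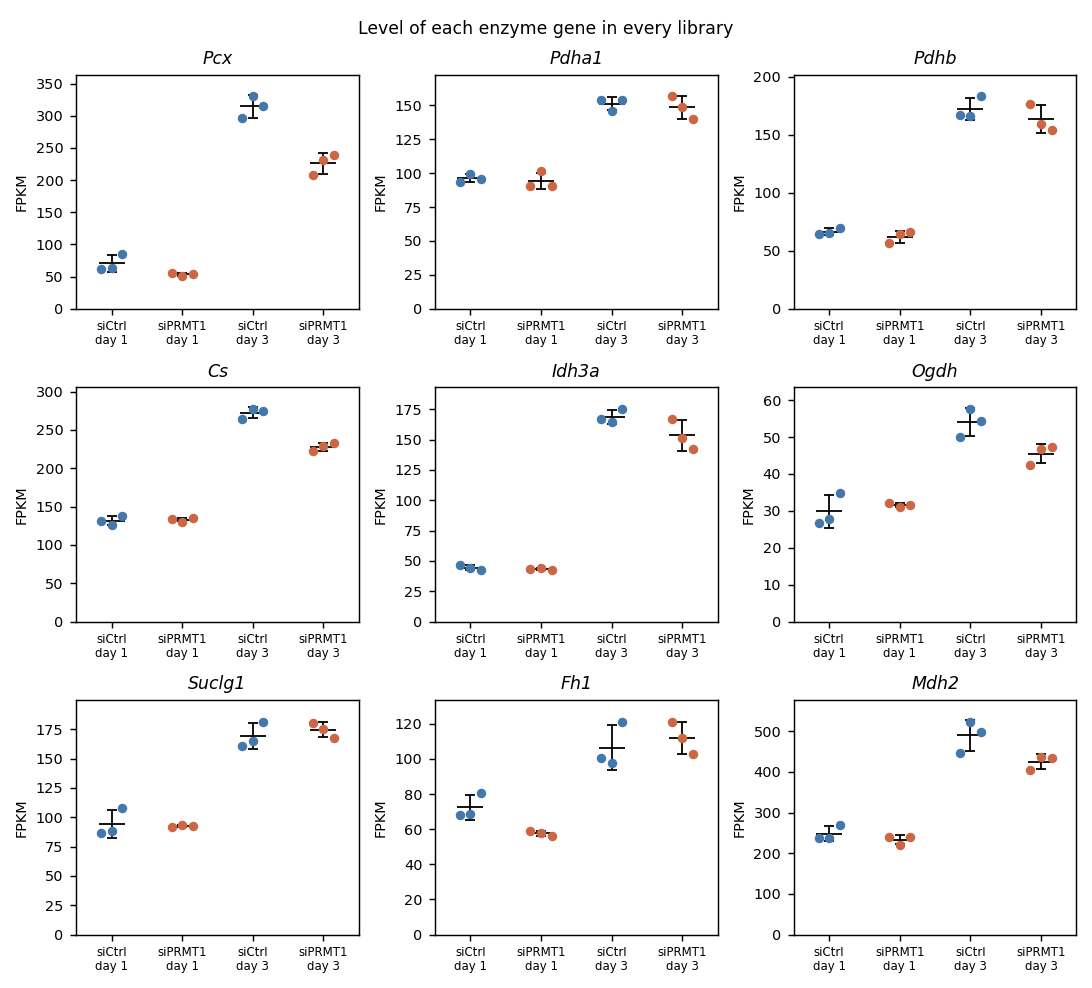
FPKM (vertical axes, from 0, one scale per gene) of the 9 enzyme genes in the 12 libraries, by siRNA and day. Points are libraries in the order of their replicate numbers, and the black bar and whiskers are the mean and SD of 3. All 9 genes are higher at day 3, and at day 3 the siPRMT1 points of Pcx, Cs, Ogdh and Mdh2 lie below all siCtrl points.

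All 9 enzymes rose between day 1 and day 3 of DMI in siCtrl cells. Pcx led: its level was 61.7, 64.1 and 85.9 FPKM in siCtrl replicates 1 to 3 at day 1 and 297, 331 and 316 at day 3. The groups were far apart, and the log2 fold change was 2.09 (SE 0.127, adjusted p = 5.5e-07 by edgeR's quasi-likelihood test with Benjamini-Hochberg adjustment). A gene is said to have passed at an adjusted p under 0.05 and to be called when its absolute log2 fold change was also over 0.5, the study's thresholds. All 9 members passed as higher, against 30.2% of the 13829 genes tested, and 8 were called, against 22.7%. Fh1 was the member that was not called, at 0.49 (SE 0.111, adjusted p = 0.0037 by edgeR).

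The rise was unequal among the members. Idh3a, whose 3 siCtrl libraries had 46.5, 44.6 and 42.5 FPKM at day 1 and 167, 164 and 175 at day 3, had a log2 fold change of 1.85 (SE 0.0756), and Pdhb one of 1.30 (SE 0.0819). Cs (0.98), Mdh2 (0.91), Ogdh (0.79) and Suclg1 (0.77) formed a middle group whose 95% intervals overlapped. Pdha1 rose by 0.58 (SE 0.0683), with an interval (0.45 to 0.72) wholly below that of Pdhb (1.14 to 1.46), with which it forms one enzyme. The median of the 9 was 0.91, and that of all genes tested was -0.00. Adipocyte markers rose beside them (8 of 8 passed, median 6.30) and the 7 preadipocyte and fibroblast markers fell (median -1.27). The part of this change of cell state in the members' rise was not tested.

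In siPRMT1 cells all 9 members also rose, and all 9 were called, against 19.0% of the 14224 genes tested there (32.2% passed as higher). Pcx had 56.2, 51.5 and 54.4 FPKM at day 1 and 207, 231 and 239 at day 3, a log2 fold change of 2.05 (SE 0.0641). Idh3a rose by 1.82, Pdhb by 1.38, Fh1 by 0.94, Suclg1 by 0.90, Mdh2 by 0.86, Cs by 0.76, Pdha1 by 0.64 and Ogdh by 0.51. Every siPRMT1 library at day 3 lay above every siPRMT1 library at day 1 for each of the 9, as for 33.8% of genes tested.

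**Figure D2:**
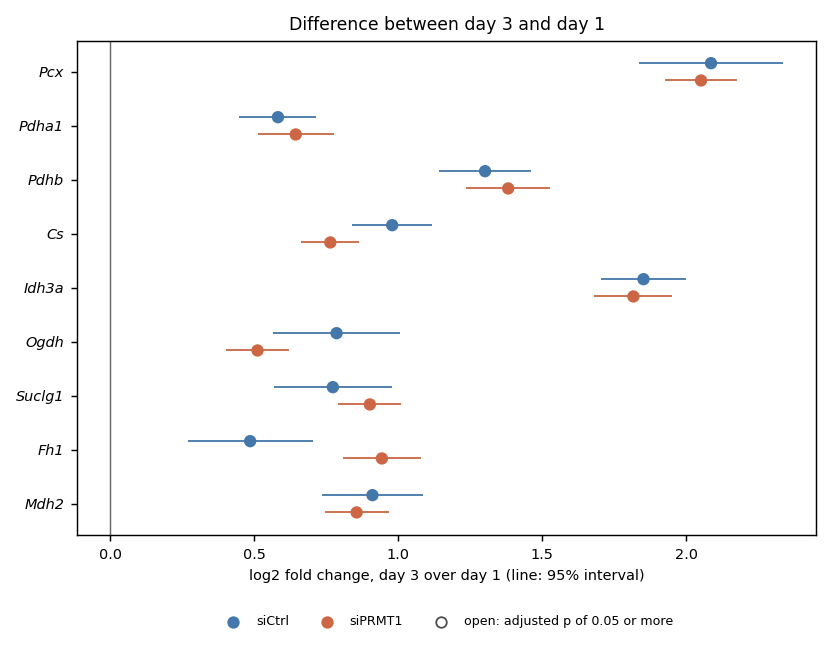
Log2 fold change of day 3 over day 1 (horizontal axis) for each of the 9 genes, in siCtrl and siPRMT1 cells. Points are edgeR estimates, lines their 95% intervals, and filled points have an adjusted p under 0.05. Pcx and Idh3a rose most in both, and the siCtrl and siPRMT1 intervals of Fh1 do not overlap.

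At day 3 of DMI, Pcx, Cs and Ogdh were lower in PRMT1 knockdown cells. Pcx, the anaplerotic enzyme, fell most: its level was 297, 331 and 316 FPKM in the siCtrl libraries (replicates 1 to 3) against 207, 231 and 239 in the siPRMT1 libraries. Each siPRMT1 library lay below each siCtrl library, and the mean level was 28.1% lower. The log2 fold change was -0.48 (SE 0.0746, adjusted p = 4.1e-04 by edgeR's quasi-likelihood test), just inside the limit of 0.5 for a call, and it passed in all 17 alternative fits. It was past 0.5 without siCtrl replicate 1 (-0.54) or siPRMT1 replicate 3 (-0.53).

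Citrate synthase, which condenses the products of both pyruvate entries, had 264, 278 and 275 FPKM in siCtrl cells against 222, 229 and 233 in siPRMT1 cells at day 3. The groups did not overlap, and the log2 fold change was -0.26 (SE 0.0651, adjusted p = 0.0124 by edgeR). Without siCtrl replicate 2 the adjusted p was 0.0508 and without siPRMT1 replicate 2 it was 0.0658, at log2 fold changes of -0.24 and -0.26.

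Ogdh had 50.1, 57.7 and 54.4 FPKM in siCtrl cells against 42.5, 46.7 and 47.2 in siPRMT1 cells at day 3, also without overlap. Its log2 fold change was -0.26 (SE 0.0752, adjusted p = 0.0291 by edgeR). With 1 library left out, Ogdh no longer passed in 4 of 6 fits: the adjusted p by edgeR was 0.143 without siCtrl replicate 2 (log2 fold change -0.20), 0.0775 without siCtrl replicate 3, 0.0715 without siPRMT1 replicate 1 and 0.0832 without siPRMT1 replicate 2. Nor did it pass with all 12 libraries in 1 model (adjusted p = 0.0792 by edgeR) or in the 3 limma fits on FPKM (adjusted p = 0.0594 to 0.121).

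The other 6 enzymes did not pass at day 3. Mdh2, which regenerates oxaloacetate, had 447, 524 and 498 FPKM in siCtrl cells against 405, 438 and 435 in siPRMT1 cells. These ranges did not overlap, but the log2 fold change of -0.21 (SE 0.0758) had an adjusted p of 0.0727 by edgeR, which was 0.0143 without siCtrl replicate 1 (log2 fold change -0.29) and 0.0463 by DESeq2. Idh3a stood at -0.14 (95% interval -0.29 to 0.00, adjusted p = 0.212 by edgeR), and passed in 3 of 17 alternative fits. These were the fit without siPRMT1 replicate 1, its highest siPRMT1 library at 167 FPKM (log2 fold change -0.22, adjusted p = 0.0477 by edgeR), limma voom with quality weights (-0.18, adjusted p = 0.0425) and the GC and length offset (-0.17, adjusted p = 0.0394 by edgeR). For both pyruvate dehydrogenase subunits and for Suclg1 and Fh1 the 2 groups overlapped. Their log2 fold changes were -0.03 for Pdha1 (95% interval -0.17 to 0.10), -0.08 for Pdhb (-0.23 to 0.07), 0.04 for Suclg1 (-0.10 to 0.18) and 0.07 for Fh1 (-0.11 to 0.24).

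Thus 3 of the 9 passed as lower and 0 as higher by edgeR at day 3 (by DESeq2, 4 as lower, with Mdh2 added, and 0 as higher, and at an unadjusted p under 0.05 also 0 as higher), where 8.94% of the 14039 genes tested passed as lower and 7.54% as higher. All 9 lay within 0.5 of 0, so 0 were called, where 3.80% of genes were called lower. Groups were apart with siPRMT1 lower for 4 of 9 (Pcx, Cs, Ogdh and Mdh2), against 18.1% of genes tested. The median log2 fold change of the 9 was -0.14 and that of all genes tested 0.01. Beside these falls, all 8 adipocyte markers were below 0 and 7 passed as lower, their sum being 2175 to 2384 FPKM in siPRMT1 against 2802 to 3019 in siCtrl cells. Of 7 preadipocyte and fibroblast markers 4 passed as higher and 1 was below 0, with a sum of 612 to 697 against 483 to 527 FPKM. The macrophage list summed to 2.38 to 2.60 FPKM in both groups. The endothelial list summed to 0.58 to 0.68 FPKM in siPRMT1 against 0.79 to 0.88 in siCtrl cells, and 1 of its 2 genes tested was called lower. The muscle list summed to 3.54 to 4.03 FPKM in siPRMT1 against 6.35 to 6.54 in siCtrl cells, with Des lower by edgeR (log2 fold change -0.77, adjusted p = 4.2e-05), and the epithelial list to 4.60 to 5.04 against 5.99 to 6.57, with Krt14 lower (-0.37, adjusted p = 0.0250 by edgeR). The part of these differences in the members' result was not tested.

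**Figure D3:**
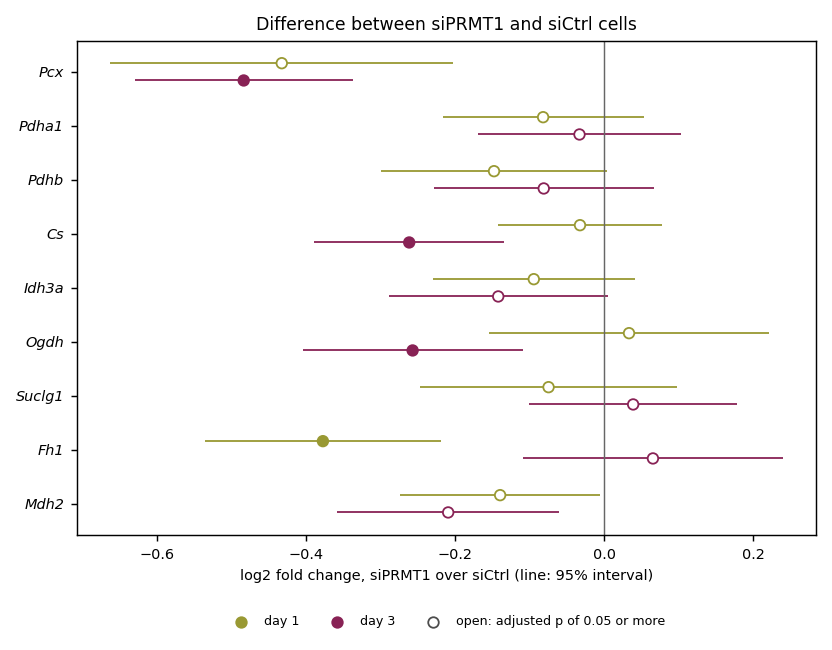
Log2 fold change of siPRMT1 over siCtrl cells (horizontal axis) for the 9 genes at day 1 and day 3. Points are edgeR estimates, lines their 95% intervals, and filled points have an adjusted p under 0.05. Filled are Fh1 at day 1 (-0.38) and Pcx (-0.48), Cs (-0.26) and Ogdh (-0.26) at day 3.

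At day 1, fumarate hydratase was the member that passed. Fh1 had 67.8, 68.8 and 80.8 FPKM in the siCtrl libraries against 59.0, 57.9 and 56.2 in the siPRMT1 libraries. All siPRMT1 libraries were below all siCtrl libraries, and the log2 fold change was -0.38 (SE 0.0809, adjusted p = 0.0292 by edgeR's quasi-likelihood test). Without siCtrl replicate 3, its highest library, the log2 fold change was -0.30 and it passed (adjusted p = 0.0017 by edgeR). It no longer passed without siCtrl replicate 2 (adjusted p = 0.085) and without siPRMT1 replicate 1, 2 or 3 (0.097, 0.0939 and 0.123 by edgeR), where the log2 fold change stayed between -0.42 and -0.36, nor in the 3 limma fits on FPKM (adjusted p = 0.0569 to 0.111). Over all genes at day 1, 441 passed as higher and 599 as lower. Leaving out siCtrl replicate 3 gave 2047 and 2086, and leaving out any other library gave 61 to 202 and 70 to 287. Day 1 passes gained or lost in such fits, here and below, thus stand beside a change over all genes.

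Pcx had 61.7, 64.1 and 85.9 FPKM in siCtrl cells against 56.2, 51.5 and 54.4 in siPRMT1 cells at day 1. The siPRMT1 libraries were all lower, yet the log2 fold change of -0.43 (SE 0.117) had an adjusted p of 0.0616 by edgeR and did not pass. It passed in 8 of 17 alternative fits, among them DESeq2 (-0.44, adjusted p = 0.0118). The siCtrl library that stood apart, replicate 3, held the highest value. Without it the log2 fold change was smaller, -0.28, and passed with an adjusted p of 0.0026 by edgeR. In that fit 2047 of the 13949 genes tested passed as higher and 2086 as lower. Ogdh was the member above 0: at 26.8, 27.9 and 34.9 FPKM in siCtrl cells against 32.2, 31.1 and 31.6 in siPRMT1 cells it overlapped (log2 fold change 0.03, 95% interval -0.15 to 0.22), and without siCtrl replicate 3 it was higher in siPRMT1 cells by 0.15 (adjusted p = 0.0415 by edgeR).

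Of the remaining members at day 1, Mdh2 (-0.14), Pdhb (-0.15), Idh3a (-0.09), Pdha1 (-0.08), Suclg1 (-0.07) and Cs (-0.03) had adjusted p-values from 0.252 to 0.775 by edgeR. On the scale of TMM-normalised counts (CPM) over the 6 libraries of the day, the 3 siPRMT1 libraries of Mdh2 and Pdhb lay below the 3 siCtrl libraries, at 279 to 303 against 312 to 347 for Mdh2, whereas in FPKM, which scales by the library total alone, both genes overlapped. Idh3a overlapped in FPKM and in these CPM (98.8 to 105 against 103 to 114), and was apart when TMM was taken over all 12 libraries (99.2 to 105 against 108 to 116). In all, 1 of 9 passed as lower and 0 as higher by edgeR (by DESeq2, 2 as lower, Fh1 and Pcx, and 0 as higher, and at an unadjusted p under 0.05 also 0 as higher), where 4.38% of the 13689 genes tested passed as lower and 3.22% as higher, and 0 were called, all 9 lying within 0.5 of 0, where 1.61% of genes were called lower. Groups were apart with siPRMT1 lower for 4 of 9 in the CPM of that day, against 16.0% of genes on the same scale. The median log2 fold change was -0.09, with 8 of 9 below 0, and that of all genes 0.01. All 7 adipocyte markers tested at day 1 were below 0, and 4 passed as lower. The summed level of the 8 on the list was 112 to 126 FPKM in siPRMT1 against 148 to 154 in siCtrl cells. Of 7 preadipocyte and fibroblast markers, 5 were below 0 and 2 passed as lower. The part of these differences was not tested.

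A two-sided exact permutation test on FPKM, which cannot go below p = 0.1 with 3 against 3 libraries, gave 0.1 for Pcx at both days, for Fh1 at day 1 and for Cs, Ogdh and Mdh2 at day 3. Over the 20 tests made (9 members and Prmt1 at 2 days), the Benjamini-Hochberg adjusted value of each was 0.25.

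Whether the knockdown effect differed between the days was tested over all 12 libraries. Fh1 was the member that passed: its log2 fold change between siPRMT1 and siCtrl cells was 0.46 higher at day 3 than at day 1 (SE 0.136, adjusted p = 0.0374 by edgeR), where 7.69% of the 14612 genes tested passed in that direction and 4.63% in the other. Fh1 was below siCtrl at day 1 and overlapped it at day 3, as its rise from day 1 to day 3 was 0.94 in siPRMT1 and 0.49 in siCtrl cells. It no longer passed in 8 of the 12 fits that leave out 1 library, that is without siCtrl replicate 2 or any siPRMT1 library of day 1, or without replicate 1 or 2 of either siRNA at day 3, with adjusted p-values by edgeR of 0.0612 to 0.112 and estimates of 0.40 to 0.49.

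For Pcx the difference between the days was -0.03 (95% interval -0.32 to 0.27), which leaves room for changes of that size either way. Cs stood at -0.21 (SE 0.0796, adjusted p = 0.105 by edgeR) and Ogdh at -0.27 (SE 0.132, adjusted p = 0.211). Both passed without siCtrl replicate 3 of day 1, Cs at -0.27 (adjusted p = 0.0163 by edgeR) and Ogdh at -0.43 (adjusted p = 0.0042). Over all genes, that fit passed 1760 as higher and 1974 as lower, against 1123 and 676 with all 12 libraries. For the other 5 members the adjusted p was 0.509 to 0.887 by edgeR.

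Ratios between genes were taken within each library. The ratio of Pcx to Pdha1, which sets the 2 pyruvate entries against each other, was 0.659, 0.645 and 0.895 in siCtrl cells against 0.620, 0.509 and 0.601 in siPRMT1 cells at day 1, and 1.93, 2.27 and 2.05 against 1.32, 1.56 and 1.72 at day 3. The siPRMT1 ratios were lower at both days, without overlap. The ratio of Pcx to Cs in FPKM was 0.469, 0.508 and 0.625 in siCtrl cells against 0.419, 0.395 and 0.404 in siPRMT1 cells at day 1. The day 3 ratios were 1.12, 1.19 and 1.15 against 0.933, 1.01 and 1.03. Here too the siPRMT1 libraries were lower at both days, without overlap, and the ratio was above 1 in all siCtrl libraries of day 3. Pdha1 over Pdhb, the 2 subunits of one enzyme, fell from 1.45 ± 0.0682 (SD, n = 3) at day 1 to 0.880 ± 0.0420 at day 3 in siCtrl cells and from 1.52 ± 0.130 to 0.909 ± 0.0229 in siPRMT1 cells, with overlap between the siRNAs at both days. Idh3a over its partner Idh3b was 0.654 ± 0.0772 and 0.680 ± 0.0154 at day 1 in siCtrl and siPRMT1 cells, and 1.37 ± 0.00621 and 1.19 ± 0.0453 at day 3, where the 3 siPRMT1 ratios (1.16 to 1.24) were below the 3 siCtrl ratios (1.36 to 1.38). Set against Idh3g, its other partner, Idh3a showed no such drop at day 3. That ratio ranged from 1.31 to 1.74 under siPRMT1 (mean 1.47), overlapping the siCtrl range of 1.22 to 1.40 (mean 1.30). These ratios were not tested.

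**Figure D4:**
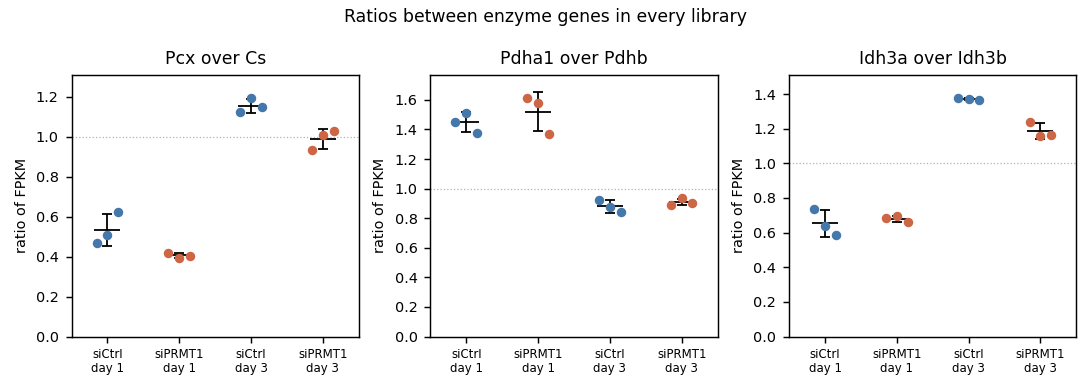
Ratio of FPKM (vertical axes, from 0) of Pcx to Cs, Pdha1 to Pdhb and Idh3a to Idh3b in the 12 libraries, by siRNA and day. Points are libraries, bars and whiskers the mean and SD of 3, and the dotted line marks 1. Pcx over Cs goes from at most 0.625 at day 1 to at least 0.933 at day 3. The ratio of Idh3a to Idh3g, which overlapped between the siRNAs at day 3, is not drawn.

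Among all genes tested, 4.38% passed as lower at day 1 and 8.94% at day 3. Of 14 genes for partner subunits and the remaining cycle enzymes, 2 passed at day 1 and 3 at day 3, all as lower. At day 1 these were Idh2, the NADP-dependent isocitrate dehydrogenase (log2 fold change -0.44, SE 0.0765, adjusted p = 0.0164 by edgeR) and Suclg2, which pairs with Suclg1 (-0.36, SE 0.0672, adjusted p = 0.0191). Idh2 was lost without siCtrl replicate 2 or any siPRMT1 library and Suclg2 without any library but siCtrl replicate 3, at adjusted p-values by edgeR of 0.0568 to 0.0966. At day 3 their log2 fold changes were -0.03 and -0.02, and other genes passed, 2 of which are described here. Idh3g, the regulatory partner of Idh3a, stood at -0.31 (SE 0.0724, adjusted p = 0.0091 by edgeR). Pdhx, a component of the pyruvate dehydrogenase complex with at most 3.99 CPM, stood at -0.56 (adjusted p = 0.0358 by edgeR) and passed in 2 of the 6 fits that leave out 1 library, those without siCtrl replicate 2 or siPRMT1 replicate 3. The list's median was -0.14 at day 1 and -0.08 at day 3.

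In the siCtrl course 12 of these 14 passed as higher, against 30.2% of all genes tested. They were led by smallest p by Dlat (0.93) and Dlst (0.80), core subunits of the pyruvate and the 2-oxoglutarate dehydrogenase complex respectively. Idh2 fell, by 0.62 on the log2 scale (SE 0.0950, adjusted p = 3.0e-04 by edgeR), opposite to Idh3a.

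Regulators of pyruvate dehydrogenase changed under knockdown at day 3, where the Pdha1 and Pdhb subunits did not pass. Of 9 genes for the pyruvate carrier, the inhibitory kinases and the activating phosphatases, 4 passed as lower and 1 as higher. Among all genes tested at day 3, 8.94% passed as lower and 7.54% as higher. The kinase gene Pdk1 had 131.9 to 141.7 CPM in siCtrl and 68.0 to 88.5 in siPRMT1 cells (log2 fold change -0.85, SE 0.0900, adjusted p = 1.8e-05 by edgeR), and Pdk2 had 28.0 to 33.0 against 16.8 to 22.4 CPM (-0.62, SE 0.106, adjusted p = 9.5e-04). The phosphatase gene Pdp1 was higher, with 24.7 to 29.2 CPM in siCtrl and 44.5 to 47.7 in siPRMT1 cells (0.80, SE 0.0845, adjusted p = 1.8e-05 by edgeR). The groups were apart for all 3 genes. The other phosphatase gene Pdp2 stood at -0.37 and the carrier gene Mpc1 at -0.34, with adjusted p-values of 0.0072 and 0.0101 by edgeR. Between the days the knockdown effect differed for Pdp1 (1.06, adjusted p = 9.2e-05 by edgeR), Pdk1 (-0.54, adjusted p = 0.0091) and Pdp2 (-0.49, adjusted p = 0.0196), the last of which was lost without siPRMT1 replicate 3 of day 1 (0.0562) or siCtrl replicate 1 of day 3 (0.0508).

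At day 1 Pdk3 (-0.36), Pdk1 (-0.29) and Pdk4 (-0.28) passed as lower (adjusted p = 0.0234, 0.0329 and 0.0334 by edgeR), and each was lost without any library but siCtrl replicate 3 (adjusted p by edgeR 0.0540 to 0.139). Among all genes tested at day 1, 4.38% passed as lower. In the siCtrl course, 6 of the 9 passed as higher, against 30.2% of all genes tested, and 3 as lower, as did 3968 of the 13829 genes tested. Pdp1 fell by 2.25 and Pdk4 by 1.41 on the log2 scale, while the carrier genes Mpc2 (1.11) and Mpc1 (1.90) rose.

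Of 14 genes tested from the side routes of citrate, malate and NADPH, 6 passed as lower at day 3, led by the mitochondrial citrate carrier Slc25a1 (-0.66, SE 0.102, adjusted p = 4.2e-04 by edgeR), the dicarboxylate carrier Slc25a10 (-0.51, SE 0.0851, adjusted p = 8.2e-04) and Pck2, the mitochondrial phosphoenolpyruvate carboxykinase (-0.40, adjusted p = 0.0030). Among all genes tested at day 3, 8.94% passed as lower. At day 1, 4 of 14 tested passed as lower and 1, Pck2, as higher (0.27), where 4.38% and 3.22% of all genes did. The cytosolic malate dehydrogenase gene Mdh1 fell most, from 221 to 239 CPM in siCtrl to 133 to 146 in siPRMT1 cells (-0.70, SE 0.0652, adjusted p = 0.0030 by edgeR), while its mitochondrial counterpart Mdh2 did not pass. Me2 (-0.50), Idh1 (-0.39) and Glud1 (-0.30) followed. Me2 and Idh1 were lost without siPRMT1 replicate 1 or 3, Idh1 also without siCtrl replicate 2, and Glud1 without siCtrl replicate 2 or any siPRMT1 library (adjusted p by edgeR 0.0549 to 0.0974). Pck2 at day 1 passed in 1 of the 6 fits that leave out 1 library, that without siCtrl replicate 3.

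The next 5 genes serve the supply or attachment of lipoate, needed by the complexes of Ogdh and pyruvate dehydrogenase, or of biotin, needed by Pcx. Among all genes tested 8.94% passed as lower at day 3, and of these 5 genes 3 did. They were the lipoate synthase Lias (-0.36, adjusted p = 0.0060 by edgeR), the holocarboxylase synthetase Hlcs (-0.36, adjusted p = 0.0143) and the biotinidase Btd (-0.30, adjusted p = 0.0259). Hlcs was lost without siCtrl or siPRMT1 replicate 2, and Btd in 4 of 6 such fits, those without siCtrl replicate 2 or 3 or siPRMT1 replicate 1 or 2 (adjusted p by edgeR 0.0662 to 0.111). At day 1, Hlcs was also lower (-0.33, adjusted p = 0.0399 by edgeR), but no longer passed without any library other than siCtrl replicate 3. In the siCtrl course Lipt1 (1.41), Lias (0.83) and Lipt2 (0.71) rose, and Hlcs did not pass (0.08).

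Among 10 regulators of mitochondrial biogenesis, 0 passed at day 1 by edgeR (0 by DESeq2, 2 higher and 2 lower at an unadjusted p under 0.05), and 1, Ppargc1a, was higher in siPRMT1 cells at day 3 (0.55, adjusted p = 0.0117), with 4.1 to 5.6 CPM in siCtrl and 6.6 to 7.2 in siPRMT1 cells. It no longer passed without siCtrl replicate 3 (0.43, adjusted p = 0.0644 by edgeR). Among all genes tested at day 3, 7.54% passed as higher. Of the 10, 5 passed as higher in the siCtrl course, against 30.2% of all genes tested, among them Ppargc1b (3.93), Esrra (1.50) and Pprc1 (0.42). Of 14 import and chaperone genes, Vdac1 passed as lower at day 1 (-0.23) and Lonp1 at day 3 (-0.30). Among all genes tested, 4.38% passed as lower at day 1 and 8.94% at day 3. All 14 passed as higher in the siCtrl course with a median of 0.86, against 30.2% of all genes tested. They were led by smallest p by Hspd1 (0.98), Hspa9 (0.86) and Phb2 (1.09). Vdac1 no longer passed without any library but siCtrl replicate 3 (adjusted p by edgeR 0.0919 to 0.149). Genes encoded by mitochondrial DNA were not analysed here.

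**Figure D5:**
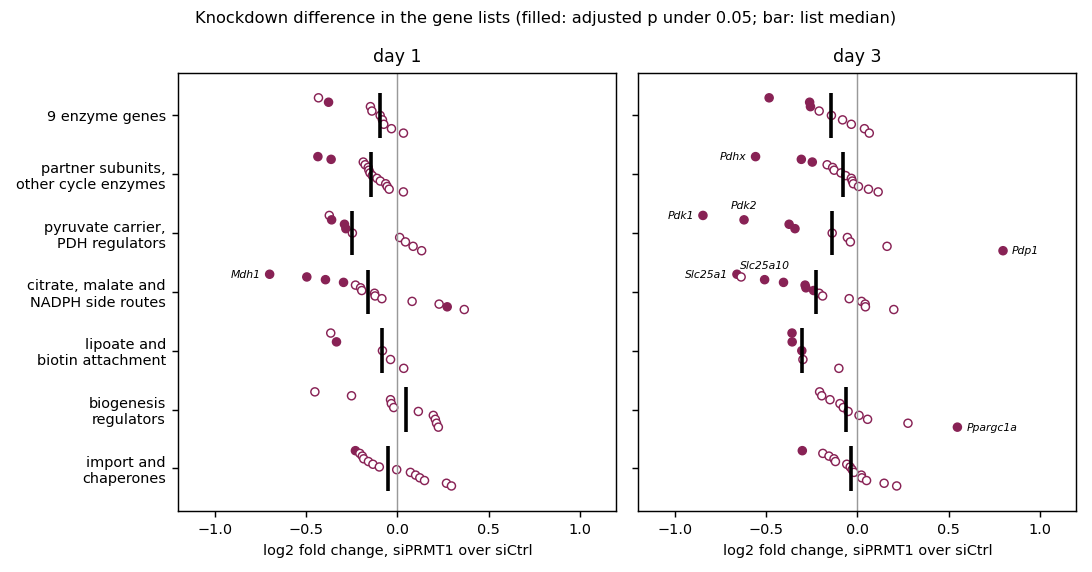
Log2 fold change of siPRMT1 over siCtrl cells (horizontal axes) for the 9 enzyme genes and 6 related gene lists at day 1 and day 3. Each point is a gene, filled at an adjusted p under 0.05 by edgeR, the black bar is the list median, and genes past 0.5 with a filled point are named. At day 3 Pdk1 (-0.85) and Pdp1 (0.80) lie farther from 0 than any of the 9 enzyme genes.

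Across the 12 libraries, the genes most like the mean of the 9 members were Pex19, Rpia, Phb, Afg3l2 and Fdps. The measure was the root mean square distance between log2 CPM profiles, each centred on its own mean, across the 9316 genes whose mean reached 10 CPM. These 5 lay at 0.0465 to 0.0584, where the median gene lay at 0.586. The members themselves lay at 0.120 (Mdh2) to 0.523 (Pcx) from their own mean, so Pcx, which had the steepest course, was the member least like the group. The genes nearest to Pcx were Lrig1 (0.0741), Slc25a10 (0.0959), Cldn15, Lpin1 and Bcat2, where the median gene lay at 1.09. All these distances share the same 12 libraries and are descriptions.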

How the data were processed

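RNA was sequenced from 12 libraries of 3T3-L1 cells. The submitters' processing notes name cutadapt 1.11, HISAT2 2.1.0 and RSEM 1.2.6 on mm10; the counting tool, strand setting and treatment of multiply mapped reads are not given in the sources used here. The deposited counts are whole numbers per gene without normalisation. The deposited FPKM were made by the authors from the counts, gene length and library total, and were recomputed to within 0.005. The number of count and FPKM columns left unused was 0, and 26095 genes had a count.

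Counts were tested with edgeR 4.0.16 (R 4.3.3): TMM normalisation, filterByExpr, quasi-likelihood F test and Benjamini-Hochberg adjustment over all genes tested. Each knockdown and each course used its own 6 libraries, and the interaction all 12. SE is the absolute log2 fold change over the square root of F, and intervals are 1.96 SE either way. All 9 members passed the filter in every comparison. CPM are after TMM over all 12 libraries, except that whether groups overlapped was read with TMM over the 6 libraries compared.

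The members, related lists and tests were chosen with earlier results of these data known. Genes named from the lists are the 3 with the smallest p among those that passed in each knockdown and in the siCtrl course, and every partner gene that passed under knockdown. The values of 1 partner gene, which stays in the counts, are not reported here. Pdp2, Mpc1 and Glud1 were named after their values were seen. The 5 nearest genes were ranked as stated.

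Alternatives were DESeq2 1.42.0, RLE in place of TMM, no count filter, a filter of 10 counts in each library, a term for the replicate number, 1 model of all 12 libraries, limma 3.58.1 (voom with quality weights, or log2(FPKM + 1) or log2(FPKM + 0.1) at a mean of at least 1 FPKM, or without that minimum), each library left out and, chosen after seeing the data, an offset for GC content and length (6 spline degrees of freedom and a prior count of 3), for which 88.9% to 90.3% of genes tested had a GC value. The tests were also run on simulated counts. The changes set there were larger than the members' knockdown differences and no library stood apart, so that run does not measure how well such small differences are found.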

Additional observations from a re-analysis of the deposited data

Results flagged for a closer look

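These results have a knockdown effect that differed between the days by the interaction test over all 12 libraries (edgeR, Benjamini-Hochberg adjustment over 14612 genes). Values are the log2 fold change of siPRMT1 over siCtrl cells at day 3 minus that at day 1.

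Fh1, the only one of the 9 enzymes, stood at 0.46 (adjusted p = 0.0374 by edgeR). It passed in 4 of the 12 fits that leave out 1 library. Among partner and cycle genes, Idh2 stood at 0.42 (adjusted p = 0.0331 by edgeR, 4 of 12 such fits) and Suclg2 at 0.36 (adjusted p = 0.0461, 2 of 12). Fh1, Idh2 and Suclg2 were lower in siPRMT1 cells at day 1, and none of them passed at day 3.

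Among the regulators of pyruvate dehydrogenase, Pdp1 stood at 1.06 and Pdk1 at -0.54, and both passed in all 12 such fits. Pdp2 stood at -0.49 and passed in 10 of 12.

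Among genes of citrate, malate and NADPH side routes, Mdh1 stood at 0.76, Glud1 at 0.52, Idh1 at 0.44 and Pck2 at -0.66, each passing in 12 of 12 such fits, and Me2 at 0.33, passing in 1 of 12. Lonp1 stood at -0.58 (12 of 12) and Esrra at -0.41 (7 of 12).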

How the results depend on the processing

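The rise of all 9 enzymes from day 1 to day 3 kept its direction and its side of the threshold in all 17 alternatives, in siCtrl and in siPRMT1 cells. So did the fall of Pcx at day 3. The number of members that passed as lower at day 1, 1 by edgeR, was 2 with DESeq2, without a filter, with at least 10 counts in every library, with all 12 libraries in 1 model and with the GC and length offset, 3 with voom, and 0 with each of the 3 limma fits on FPKM. It ran from 0 to 2 with 1 library left out, and the number higher from 0 to 1. With the GC and length offset 1 was called lower at day 1. At day 3, the 3 lower members became 5 with voom and 1 with limma on FPKM without a filter, and ran from 1 to 4 with 1 library left out, where 0 to 1 were called lower. Ogdh was lost at day 3 with all 12 libraries in 1 model and in each of the 3 limma fits on FPKM. In the interaction, 1 member passed as higher and 0 as lower; leaving out 1 library gave 0 to 1 and 0 to 2, voom and the offset gave 2 as lower, and 0 to 1 were called higher with 1 library left out and 1 without a filter.

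Among members that did not pass, small log2 fold changes changed sign. At day 1 Cs stood at 0.0093 with voom and at 0.0178, 0.0180 and 0.0178 with limma on FPKM, and Suclg1 at 0.000606 with voom. With 1 library left out, Suclg1 ran from -0.13 to 0.024 and Ogdh from -0.038 to 0.15 at day 1, and Pdha1 from -0.084 to 0.0012, Suclg1 from -0.012 to 0.092 and Fh1 from -0.0021 to 0.17 at day 3. Suclg1 at day 3 stood at -0.0038 with the offset. In the interaction Pcx stood at 0.018 without a filter and 0.10 with the offset, Pdha1 at -0.026 with the offset and Idh3a at 0.015 without a filter. With 1 library left out, Pcx ran from -0.23 to 0.066, Idh3a from -0.10 to 0.027, Suclg1 from -0.0041 to 0.20 and Mdh2 from -0.14 to 0.015. The cause was not tested.

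With the replicate number as a replicate block, 2 members passed as lower at day 1, with Pcx added, Mdh2 was added at day 3, and all genes that passed at day 3 numbered 1523 higher and 1693 lower against 1058 and 1255. Same-numbered libraries of the 2 siRNAs correlated at -0.04, 0.14 and 0.23 at day 1 and at 0.18, 0.09 and -0.02 at day 3. Libraries with different numbers correlated at -0.28 to 0.23 at day 1 and at -0.20 to 0.14 at day 3. The numbers were not taken as pairs, and these correlations do not settle whether they are.

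Over all genes at day 1, 441 passed as higher and 599 as lower; voom gave 2338 and 2225, the offset 958 and 1522, and leaving out 1 library 61 to 2047 and 70 to 2086, highest without siCtrl replicate 3. No alternative moved the median of all genes by as much as 0.1. The 95% intervals of Pdha1 and Suclg1 held 0 in both knockdowns.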
